A study of Mus musculus with 6 samples.

Results

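The regions described here are the CTCF regions nearest to the centromere of the mouse autosomes. Peaks of 6 lists were merged into regions wherever they overlapped by 1 bp, and a region was kept when it lay on chromosomes 1 to 19 and started below 8 Mb. That gave 3562 of the 90494 regions on these chromosomes, and of 94951 regions in all. The remaining 86932 autosomal regions served as the rest. Membership depends on position alone, so no measured value chose the regions. Positions are counted from 1 and refer to mm39, whose sequence names appear in the lists.

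The assay was CUT&RUN: an antibody against CTCF tethers a nuclease to chromatin, and the DNA it cuts free is sequenced. The cells were regulatory T cells of the thymus, which restrain other T cells. There were 3 libraries labelled WT and 3 labelled Cgas knockout (Cgas_KO), the latter from cells without cGAS, with 1 peak list each. Strain, age, the type of Cgas allele, any pooling of animals and whether replicates came from separate animals were not given in the sources used here, so p-values reflect how far these samples scatter, and that scatter may be technical. Peak lists hold no expression markers, and no annotation of mm39 was used, so neither the cell type nor the genotype could be checked from the lists. Genes and sequences at the regions were likewise not analysed here, and a region is called by its coordinates.

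A mouse autosome carries its centromere at one end. The centromere and the heterochromatin beside it are long arrays of satellite repeats, and these sit in the first 3 Mb of each reference chromosome, which are left unassembled. The window from 3 to 8 Mb is therefore the stretch where mapped sequence begins. CTCF is a zinc-finger protein that binds an extended DNA motif, halts cohesin at loop anchors and insulates neighbouring domains. cGAS senses DNA in the cytosol and starts interferon signalling through STING. It is also found in the nucleus, bound to nucleosomes, and has been described at centromeric repeats.

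Averaged over the 19 autosomes, peak density next to the centromere differed from that of the rest by less than the spread between libraries. In the WT lists 1042, 1062 and 1083 peaks fell in the window, and in the Cgas_KO lists 1101, 1105 and 1205. Every Cgas_KO list thus held more than any WT list (exact permutation p = 0.1, the smallest that 3 against 3 libraries allow, Benjamini-Hochberg adjusted 0.6 over 6 measures). As a share of the autosomal peaks of a list, the window held 3.98% ± 0.168 (SD, n = 3) in WT and 3.97% ± 0.104 in Cgas_KO, with an exact permutation p of 0.9, adjusted 1. On average the Cgas_KO lists held 74.7 more proximal peaks, or 40.7 more without Cgas_KO replicate 3, the longest list. When all lists were cut to the length of the shortest, 27128 peaks, they held 5 fewer. How deeply each library was sequenced is unknown, as the lists give signal only inside peaks.

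Over the 95 Mb of the 19 windows, the 6 lists held 11.6 ± 0.598 peaks per Mb (SD, n = 6). The rest of the same chromosomes, from 8 Mb to the last peak, held 11.5 ± 0.696. The log2 ratio was 0.01 ± 0.05, above 0 in 3 libraries and below in 3 (exact sign-flip test over 6 libraries, two-sided, p = 0.688, adjusted 0.917 over 4 measures). Such a test asks only whether libraries vary enough to hide a difference, since all 6 share 1 genome. Peaks covered 4.24% ± 0.239 of the window in WT and 4.15% ± 0.494 in Cgas_KO, against 4.14% ± 0.113 and 4.01% ± 0.420 of the rest (SD, n = 3). The window was the more covered part in 5 of 6 libraries, with a log2 ratio of 0.04 ± 0.03 (exact sign-flip p = 0.0625, adjusted 0.25). Neither ratio differed detectably between genotypes (exact permutation p = 0.9 for density and 0.8 for coverage, both adjusted 1, n = 3).

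The even average hid chromosomes that went opposite ways. Mean proximal density ran from 4.53 peaks per Mb on chromosome 3 to 35.1 on chromosome 19, with a median of 10.1. The rest of the chromosomes spanned only 9.29 to 17.0. In all 6 libraries the window was denser than the rest of its chromosome on 4 chromosomes, 11, 16, 18 and 19. It was sparser in all 6 on 8, namely 1, 3, 5, 6, 8, 9, 13 and 15. On the other 7 the libraries were divided.

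**Figure D1:**
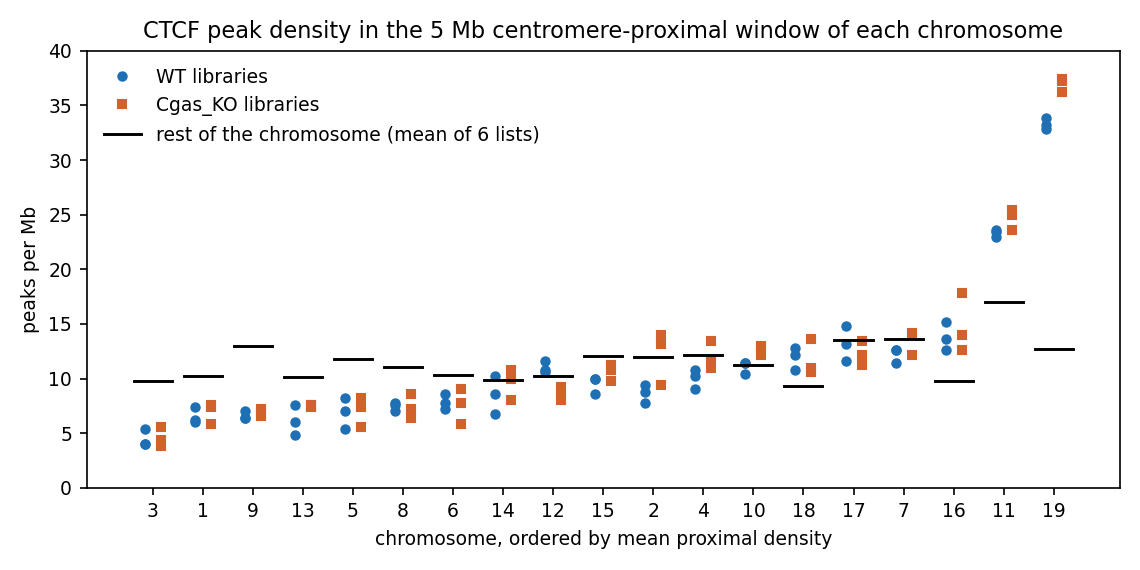
Peaks per Mb in the proximal window of each of the 19 autosomes, 1 point per library (circles WT, squares Cgas_KO), with a bar for the mean of the 6 lists over the rest of that chromosome. Chromosomes 19 and 11 stand far above their bars, at 35.1 and 24.0 peaks per Mb, and chromosome 3 lies lowest at 4.53.

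Chromosome 19 began with the densest window of all. Its WT lists held 164, 169 and 166 peaks there and its Cgas_KO lists 181, 187 and 186. That is 35.1 ± 2.07 peaks per Mb (SD, n = 6) against 12.7 over the rest of chromosome 19, a ratio of 2.76 (the geometric mean over libraries, here and for the chromosomes below). It was the densest of the 12 windows of 5 Mb into which this chromosome was divided, counted from 3 Mb. Chromosome 11 followed with 24.0 ± 0.963 peaks per Mb against 17.0, a ratio of 1.41, and ranked 6 of 24 windows. Chromosome 16 came next at 14.3 ± 1.97 against 9.74, a ratio of 1.46, and ranked 4 of 19.

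At the other end stood chromosome 3, with 4.53 ± 0.776 peaks per Mb (SD, n = 6) against 9.81 in the rest, a ratio of 0.458. Only 1 of its 31 windows held fewer peaks. Chromosome 9 had 6.73 ± 0.327 against 12.9, a ratio of 0.521, and ranked 23 of 24. Chromosome 1 had 6.73 ± 0.816 against 10.2, a ratio of 0.654, and ranked 30 of 38.

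Without chromosome 19 the window was the sparser part in 6 of 6 libraries, at 10.3 ± 0.549 peaks per Mb against 11.5 ± 0.695. The log2 ratio was -0.16 (exact sign-flip p = 0.0312, the smallest that 6 libraries allow). That chromosome was left out for having the densest window, so the density of the windows had to fall. This p is therefore no independent support. Giving each chromosome equal weight moved the log2 ratio to -0.17 in the same direction (exact sign-flip p = 0.0312). Without chromosomes 11 and 19, chosen after the values were seen, it was -0.24. Chromosomes 11 and 19 together supplied 25.8% to 28.0% of the proximal peaks of a list.

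Density also fell with distance from the assembly edge. Between 3 and 4 Mb there were 13.9 ± 0.542 peaks per Mb per chromosome (SD over 6 libraries), then 12.9 ± 0.693, 12.0 ± 0.715 and 11.1 ± 1.20. Between 7 and 8 Mb there were 7.89 ± 0.625. Just beyond the window the next Mb held 10.5 ± 0.804. The decline was present without chromosomes 11 and 19 as well, from 12.2 ± 0.627 at 3 to 4 Mb to 7.27 ± 0.703 at 7 to 8 Mb. Later bins also varied, and the Mb from 21 to 22 reached 13.4 ± 0.743.

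**Figure D2:**
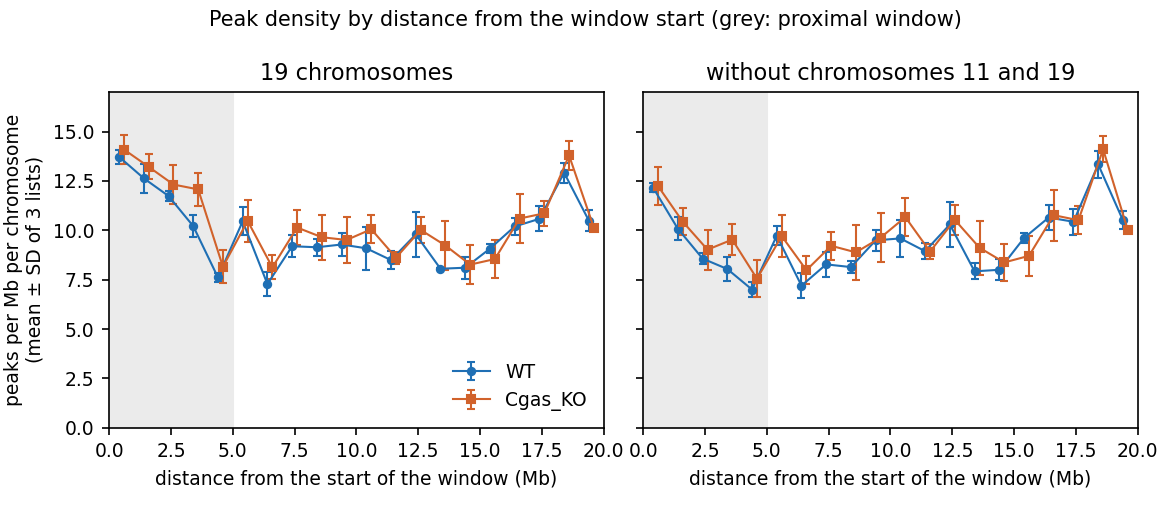
Peaks per Mb per chromosome in bins of 1 Mb, against distance from the start of the window at 3 Mb, for 19 chromosomes (left) and without chromosomes 11 and 19 (right), as mean ± SD of 3 lists per genotype. In the grey proximal window both genotypes decline to a low in its last bin, 7.61 ± 0.237 in WT and 8.16 ± 0.836 in Cgas_KO.

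The bound at 8 Mb therefore matters. The 500 kb just inside it held 294 regions, 4 of them called in all 6 lists, and the 500 kb just outside held 315, with 12 called in all 6. With a bound of 5 Mb the density ratio was 0.23 on the log2 scale (exact sign-flip p = 0.0312), and with 13 Mb it was -0.15 (p = 0.0312, exact), so the sign followed the length of the window.

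Ordinary proximal peaks had the size of peaks elsewhere. Median width was 3476 ± 214 bp in WT and 3133 ± 508 in Cgas_KO, against 3456 ± 214 and 3112 ± 487 bp in the rest (SD, n = 3). The log2 ratio was 0.01 ± 0.01 over 6 libraries (exact sign-flip p = 0.125, adjusted 0.25). Height, the highest signal of a peak, was divided by the median of its own list, because the scale of the signal is not known to be the same in all lists. The proximal median was 1 in 5 lists and 1.08 in Cgas_KO replicate 2, and the rest had 1 in 5 lists and 1.08 in WT replicate 3 (exact sign-flip p = 1). Heights come in whole steps, of which the median peak has 11 to 14, so these medians can move only by jumps. Cgas_KO replicate 3 had the narrowest peaks, with a median of 2562 bp in the window.

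Most proximal regions were called once. Of the 3562, 2504 (70.3%) were in 1 list, 447 in 2, 179 in 3, 93 in 4, 142 in 5 and 197 in all 6. The 197 were 5.53% of the regions (95% Wilson interval 4.83% to 6.33%, counting error only), against 5.31% of the rest, and lay at 2.07 per Mb against 2.0. Their median width was 7889 bp, against 7318 bp for such regions elsewhere. Merged regions of 10 kb or more made up 2.5% of the window and 2.49% of the rest.

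Shared regions followed the same few chromosomes. Chromosome 19 held 60 of the 197, which was 16.9% of its proximal regions, and chromosome 11 held 26. Together they held 43.7%. Chromosome 14 had 1 such region among 192. Without chromosomes 11 and 19 the share was 3.79% in the window (111 of 2931 regions) and 5.09% in the rest, so the order of window and rest turned around.

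The outermost 200 kb, up to 3.2 Mb, stood apart from the remainder of the window. This limit was drawn after the values were seen, so what follows describes and tests nothing. Regions on chromosomes 9 and 18 began a few bases before 3 Mb and count here. Here lay 107 regions on 19 chromosomes, of which 22 (20.6%) were called in all 6 lists, against 175 of 3455 (5.07%) from 3.2 to 8 Mb. Of the 107, 13.1% were 10 kb or wider, against 2.17% of the others. The lists had 63 to 72 peaks there, with a median width of 3882 ± 571 bp against 3281 ± 391 bp further in (SD, n = 6), wider in 6 of 6 libraries. Their median height was 1.33 ± 0.0925 times the list median against 1.01 ± 0.0314, again higher in 6 of 6.

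The 3 widest proximal regions all lay there. On chromosome 16, chr16:3049990-3117461 spanned 67472 bp and chr16:3117926-3176494 spanned 58569 bp. On chromosome 11, chr11:3100003-3151183 spanned 51181 bp. Merging chains overlapping peaks, and the first of these was made of 3 to 8 separate peaks per list, the second of 2 to 7 and the third of 4 to 7. Their heights differed: the chromosome 16 regions stayed at 2.15 to 3.21 and 2.64 to 4.62 times the list median, while the chromosome 11 region reached 15.6 to 19.8.

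A trio of proximal regions was taller than all others by far. The tallest, chr12:3158946-3160982, measured 2037 bp and stood 9678, 9452 and 10134 times the list median high in WT and 9456, 9838 and 8304 times in Cgas_KO. Next came chr9:2999979-3046411 with 1903, 1882 and 2002 times in WT and 2049, 2185 and 1767 times in Cgas_KO. The third, chr14:3049980-3054397, had 837, 824 and 895 times in WT and 920, 970 and 844 times in Cgas_KO. In height the genotypes overlapped in each of them (exact permutation p = 0.5, 0.6 and 0.2, n = 3), but in their share of the summed signal, given below, they did not. After these the heights dropped to 16.6 to 17.6 on average per genotype at chr11:3100003-3151183, 16.0 to 17.4 at chr10:3058220-3068073 and 15.8 to 16.0 at chr3:5923439-5928256, the last of which lies well inside the window.

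**Figure D3:**
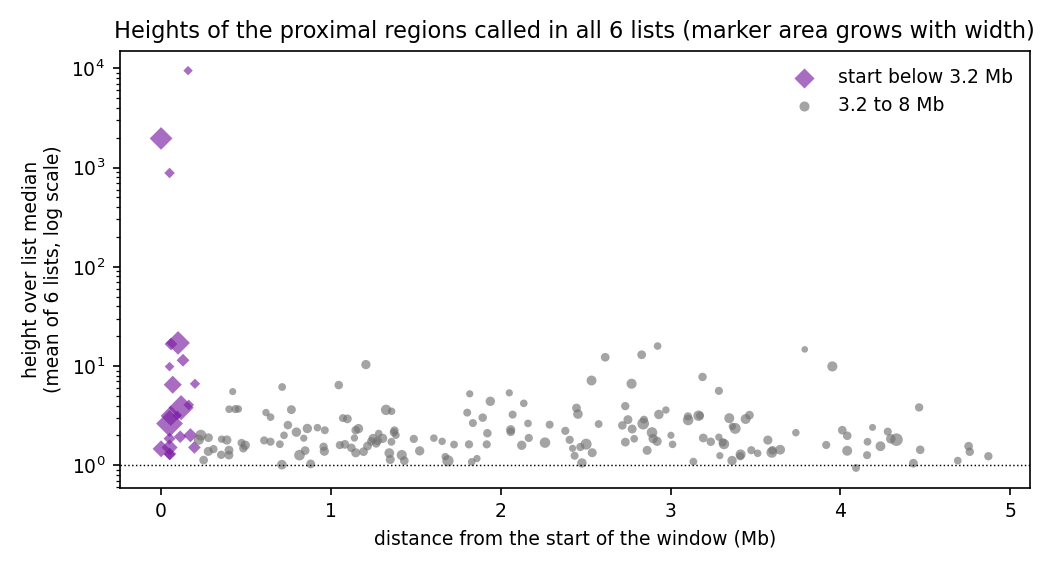
Mean height over the list median (log scale) of the 197 proximal regions called in all 6 lists, against distance from the start of the window, with marker area growing with region width. Diamonds are regions that start below 3.2 Mb and circles are those further in. The 3 regions above 100 times the median all sit at the left edge.

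These few regions carried most of the proximal signal. The window held 12.8% ± 0.0498 of the summed autosomal signal of a list in WT and 13.0% ± 0.0328 in Cgas_KO (SD, n = 3), from about 4% of the peaks. Of that, the outermost 200 kb supplied 88.0% to 89.1%, over only 337 to 449 kb of covered sequence per list. The region on chromosome 9 alone took 7.92%, 8.01% and 7.97% of the signal on chromosomes 1 to 19, X and Y in WT. In Cgas_KO it took 8.25%, 8.19% and 8.22%. The region chr14:3049980-3054397 took 1.07%, 1.09% and 1.08% in WT and 1.17%, 1.14% and 1.17% in Cgas_KO. For chr12:3158946-3160982 the shares were 1.66%, 1.66% and 1.65% in WT and 1.63%, 1.58% and 1.62% in Cgas_KO. The groups thus did not overlap in any of the trio. These differences were not tested, and such separation was not counted over all regions. Peaks from 3.2 to 8 Mb held 1.42% to 1.53% of the autosomal signal. No region was left out here, and whether the signal at the edge comes from CTCF binding was not tested.

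Tall peaks, those at least 5 times the list median, were more frequent in the window than in the rest. This measure was taken up after the data were seen and carries no test. They numbered 33, 28 and 36 in the WT windows and 19, 21 and 17 in the Cgas_KO windows. As a share of proximal peaks they were 3.04% ± 0.360 in WT and 1.68% ± 0.248 in Cgas_KO, against 2.35% ± 0.265 and 0.936% ± 0.189 in the rest (SD, n = 3). The share was higher in the window in 6 of 6 libraries, with a mean log2 ratio of 0.61. Of the tall peaks of each list, 9 to 13 lay in the outermost 200 kb, and without it the log2 ratio was -0.22. Without chromosomes 11 and 19 it was 0.07, and without chromosome 19 alone 0.38. It was 1.11 with a bound of 5 Mb and 0.17 with 13 Mb, and 1.61 for peaks of at least 10 times the median, so the excess was sensitive to each of these choices. From 3.2 to 8 Mb the share was 1.94% ± 0.389 in WT and 0.849% ± 0.200 in Cgas_KO.

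Between genotypes, 14 of the 15 tall regions further inside the window were lower in Cgas_KO. So were 6 of the 9 at its edge, mostly by less. Among the 197 regions called in all 6 lists, 24 had a mean height over the 6 lists of at least 5 times the median. That mean included both genotypes, so a region could pass through its WT lists alone. Several interior regions did, with a Cgas_KO mean below 5. All 9 at the edge had means above 5 in both genotypes. Counts and ratios of tall regions therefore describe a set picked partly by the heights compared. Of the 24, the 15 from 3.2 to 8 Mb had a median Cgas_KO over WT ratio of 0.595. The 399 such regions in the rest, chosen the same way, had the same median (0.595). Of those 399, 383 were lower in Cgas_KO. In 11 of the 15 every Cgas_KO list was below every WT list. The 9 at the edge had a median ratio of 0.940, and 1 of the 9 was lower without overlap. Among the tall regions of the rest the genotypes did not overlap in 85.0%, against 73.3% of the 15 and 11.1% of the 9. Over all 4896 regions called in all 6 lists, tall or not, the value was 35.5%. The difference between edge and interior was not tested. The genotypes also differed in signal scale, with a step of 0.190 to 0.212 signal units in the WT lists and 0.117 to 0.120 in the Cgas_KO lists. Dividing by the list median takes a factor common to all peaks of a list out of the heights. Whether the lists differed in other ways that bear on the height ratios was not tested.

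Among the interior tall regions, chr19:5534539-5547767 had the lowest ratio, 0.482, with heights of 9.65 ± 0.176 times the median (SD, n = 3) in WT and 4.65 ± 0.303 in Cgas_KO (p = 0.1, exact permutation). Another, chr10:5770232-5784094, went from 8.74 ± 1.31 to 4.55 ± 0.262. The region chr19:5829768-5838495, the tallest of the interior ones in WT, had 16.3 ± 2.42 and 9.72 ± 1.18. In the 4 others the groups overlapped. At chr19:6789906-6791647 the heights were 14.2 ± 0.862 and 15.3 ± 1.39 (exact permutation p = 0.3, n = 3), and at chr3:5923439-5928256 they were 16.0 ± 3.0 and 15.8 ± 2.18 (exact permutation p = 1, n = 3).

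At the edge, chr17:3129039-3139057 was the 1 tall region that was lower in Cgas_KO without overlap. Its heights were 14.2, 14.3 and 14.2 times the median in WT and 9.07, 9.62 and 7.27 in Cgas_KO, a ratio of 0.607 (exact permutation p = 0.1, n = 3). Another edge region, chr2:3049980-3052527, had 11.8, 8.85 and 10.2 in WT and 10.4, 10.1 and 8.0 in Cgas_KO, and there the groups overlapped. Outside the window 3 further regions exceeded 100 times the median, and their ratios were 0.941 to 1.09, while the 396 between 5 and 100 times had a median of 0.594.

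**Figure D4:**
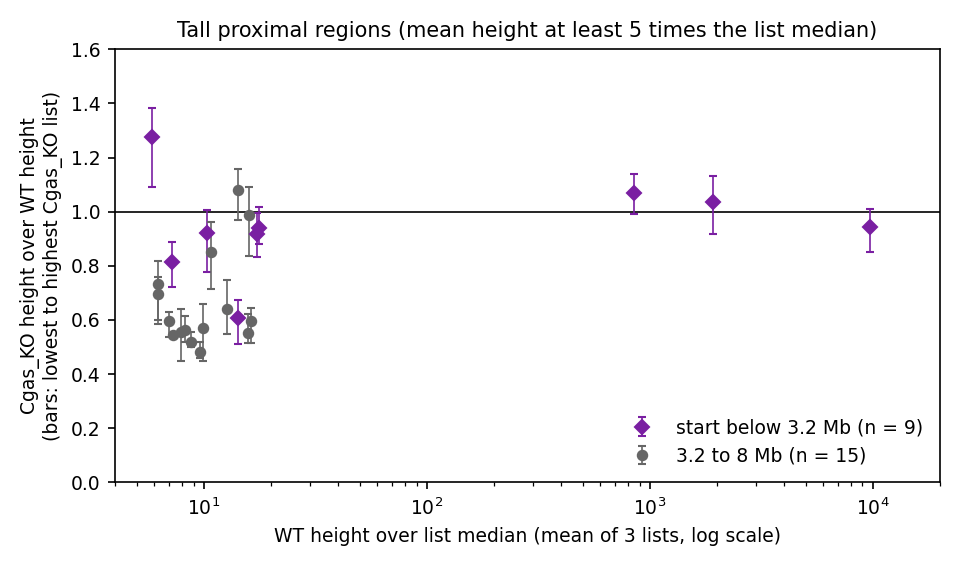
Ratio of Cgas_KO to WT height for the 24 tall proximal regions, against their WT height over the list median (log scale), with bars from the lowest to the highest Cgas_KO list. Most of the 15 interior regions (circles) lie near 0.595, while the 9 at the edge (diamonds) have a median of 0.940 and run from 0.607 to 1.27. Regions were chosen by their mean height over all lists, WT included.

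Across all 197 regions the median log2 ratio of Cgas_KO to WT height was -0.30, against -0.36 in the rest. Of the 197, 151 were lower in Cgas_KO, as were 3814 of the 4613 such regions in the rest. Relative strength was then tested with limma on the rank of height within each library. Ranks take out a drop common to all regions, and also one shared by regions of similar height. The lower heights of tall regions were therefore largely hidden from this test. For chr19:5534539-5547767, with a height ratio of 0.482, limma gave an unadjusted p of 0.196. The trio above 100 times the median kept its ranks in both genotypes, so a change there could not show. Of the 4896 regions tested 0% passed an adjusted p of 0.05, and 0 of the 197 did. At an unadjusted p under 0.05 limma gave 19 of the 197 (9.64%), 14 of them higher and 5 lower in rank in Cgas_KO, against 9.42% of all regions tested. On the log2 scale limma called 0.0204% of all regions, again 0 of the 197.

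Among regions that ranked higher in Cgas_KO, the smallest p belonged to chr18:4349305-4358885, with heights of 0.929, 0.923 and 1.0 times the median in WT and 1.36, 1.38 and 1.27 in Cgas_KO (limma adjusted p = 0.314). It was followed by chr12:4266567-4273979, with 1.36, 1.38 and 1.0 in WT and 2.43, 2.15 and 1.64 in Cgas_KO (limma adjusted p = 0.314). In both, every Cgas_KO list was above every WT list. The third of this kind was chr4:3222461-3236957, which had a limma adjusted p of 0.382.

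Among those that ranked lower in Cgas_KO, the smallest p was that of chr4:3172753-3186500, with 2.29, 2.23 and 3.46 in WT and 1.36, 1.46 and 1.27 in Cgas_KO (limma adjusted p = 0.382). It lies close to the region just named, which ranked higher. The others were chr17:3495545-3506433, with 2.29, 1.62 and 3.0 against 0.571, 1.0 and 1.09, and chr19:4859881-4863736, with 1.36, 1.23 and 1.62 against 1.0, 1.0 and 0.818 (limma adjusted p = 0.382 for either). None of the 6 passed.

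Few regions belonged to 1 genotype alone, that is, to its 3 lists and to no list of the other. There were 15 WT-only regions (0.421% of 3562, against 0.382% of all autosomal regions) and 11 Cgas_KO-only regions (0.309% against 0.338%). Together they made up 14.5% of the 179 proximal regions called in exactly 3 lists, against 13.1% on all autosomes. No single region can be tested, because 3 lists against 3 stop at p = 0.1 (exact). The WT-only regions were spread over 11 chromosomes and the Cgas_KO-only regions over 8. They were of ordinary strength, with a median percentile of total signal in their lists of 42.0 and 53.3, against 84.8 for the 197.

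By that percentile the leading WT-only region was chr19:7416316-7423295, at 75.6 ± 10.8 (SD, n = 3), with heights of 1.43, 1.46 and 1.54 times the median. After it came chr6:4543178-4546779, chr12:3407561-3412280, chr19:7171671-7176072 and chr14:6224302-6230858, at percentiles of 63.3, 61.9, 61.1 and 50.3. The leading Cgas_KO-only region was chr16:3892790-3898698, at 67.9 ± 22.4, with heights of 2.14, 1.0 and 1.0. It was followed by chr2:6354166-6359054, chr18:4021100-4023755, chr11:5201202-5207016 and chr2:3332082-3338971, at 65.1, 60.9, 60.9 and 54.0. Heights ran from 0.385 to 2.69 times the median over the 15 WT-only regions and from 0.636 to 2.14 over the 11 Cgas_KO-only regions.

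Whole windows were compared as the peaks of each window of 5 Mb over the autosomal peaks of the list, with limma fitted on 479 windows. It called 0.209% of them at an adjusted p of 0.05, and 0 of the 19 proximal ones. At an unadjusted p under 0.05 limma gave 2 of the 19, against 10.6% of all windows. The groups did not overlap in 1 of the 19, against 16.5% of all.

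That window was on chromosome 12. It held 54, 53 and 58 peaks in WT and 40, 43 and 46 in Cgas_KO, so that each Cgas_KO library had fewer than any WT library. In limma the log2 change of its share was -0.45 (SE 0.11) with an adjusted p of 0.268. On chromosome 2 the counts were 39, 44 and 47 in WT and 66, 47 and 70 in Cgas_KO, with Cgas_KO replicate 2 level with WT replicate 3. Here limma gave a log2 change of 0.37 (SE 0.14) with an adjusted p of 0.429. On chromosome 19 the difference was 0.05 (SE 0.10, limma adjusted p = 0.881).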

How the data were processed

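CTCF CUT&RUN peak lists of thymic regulatory T cells, 3 WT and 3 Cgas_KO, were grouped by the genotype in the sample titles. SEACR 1.3 (a peak caller) and Bowtie2 (an aligner) are named, with mm10 and mm39, per the submitters' processing notes. The lists carry sequence names of mm39. Each deposited peak has a total and a highest signal, computed by the authors. The sources used here do not say how signal was scaled or whether a control library entered the calling. Peaks were called per library.

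The members and lists were chosen with earlier results of these data known. The edge of 200 kb, tall peaks and the sets without chromosomes 11 and 19 or without the edge were chosen after the values were seen. The set without chromosome 19 leaves out the chromosome with the densest window, so it too depends on the values compared.

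Peaks on chromosomes 1 to 19, X and Y were merged at 1 bp overlap. A peak and its region never fell on different sides of 8 Mb. Where a list had several peaks in a region, the highest counted. Window length was taken as 5 Mb per chromosome. Below 200 steps, 100% of the highest signals lay within 0.01 of a whole number of a step particular to each list. Libraries were compared with two-sided exact tests, by permutation between genotypes and by sign flips between window and rest. Ratios are on the log2 scale. Heights and windows (plus 0.5 peaks) were tested with limma 3.58.1 in R 4.3.3, Benjamini-Hochberg adjusted at 0.05. The labels link same-numbered libraries by their number alone and do not say whether they were paired. Merging was tested on simulated lists. In simulated heights of 4896 regions limma recovered 24 of 100 regions shifted by a log2 of 1, and 86 of 100 shifted by 2. It also called 3 of 4696 unshifted regions. In simulated counts of 479 windows it recovered 8 of 20 changed by 0.5 and 20 of 20 changed by 1. There it called 2 of 439 unchanged windows. Simulated heights had the same spread in all regions and balanced shifts, without the joint drop of tall regions seen here. Simulated counts varied by counting error only, so these rates may not hold for the data. Named regions followed a rule: the 6 tallest and 3 widest, the 3 smallest limma p in each direction, and 5 regions of each genotype only. Beyond it, the interior and edge examples among tall regions were chosen after their values were seen. Alternatives were bounds of 5 and 13 Mb, the top 50% of each list, lists of equal length, 50% coverage of a region, merging within 500 bp, equal weight per chromosome, length from the first peak, total signal, log2 heights, a pseudocount of 2, windows with a mean of at least 10 peaks, blocking on replicate number, and omission of single libraries. The remaining work was done in Python 3.11.15 with scipy 1.17.1, pandas 2.3.3 and numpy 2.4.6, and plots in matplotlib 3.10.9.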

Additional observations from a re-analysis of the deposited data

How the results depend on the processing

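Peaks per window were compared without knowing read depth, which limits every count. Differences between genotypes in the density, coverage, width and height ratios were close to 0, and 3 libraries against 3 cannot pass 0.05. Their sign reversed in 9 alternatives for width, 7 for coverage, 3 for density and 2 for height. For the tall share ratio, which carries no test, the difference was larger, at 0.48. The log2 density ratio of window over rest was 0.23 with a bound of 5 Mb, and reversed to -0.15 with 13 Mb, -0.17 with equal weight per chromosome, -0.16 without chromosome 19, -0.24 without chromosomes 11 and 19 and -0.0219 without the edge. The coverage ratio in the same order was 0.32, -0.14, -0.14, -0.13, -0.21 and -0.0542. It passed 0.05 (exact sign-flip) in the top 50% of each list (0.0691), in lists of equal length (0.0409) and with length from the first peak (0.0586). Without single libraries density was -0.00492 to 0.0203 and coverage 0.0331 to 0.0516. The width ratio was -0.0015 without the edge.

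For Cgas_KO minus WT, coverage reversed to -0.011 (5 Mb), -0.0080 (13 Mb), -0.0079 (equal weight), -0.011 (without chromosome 19) and -0.010 (without 11 and 19), and was -0.00951 to 0.0367 without single libraries. Width was -0.0030 (5 Mb), -0.0059 (13 Mb), -0.0037 (top 50%), -0.0073 (without chromosome 19), -0.000585 (without the edge) and -0.011 (without 11 and 19), and -0.0066 to 0.0067 without single libraries. Height was -0.0356 with 13 Mb and -0.0070 with total signal. Density was -0.0340 to 0.0289 without single libraries. Proximal peaks differed by -5 in lists of equal length and by 40.7 (without Cgas_KO replicate 3) to 92.7 without single libraries. The tall share ratio reversed to -0.22 without the edge. The cause was not tested.

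The share of proximal regions in all lists was 0.900% at 50% coverage, 8.43% in the top 50% and 6.51% to 7.57% without single libraries. In the rest it was 0.644%, 7.34% and 6.20% to 6.96%. Proximal WT-only regions numbered 9 in the top 50% and 24 to 47 without single libraries, Cgas_KO-only regions 5 and 14 to 47. For these settings they were not counted in the rest. Leaving out a library asks for fewer lists, so these rises are built in. Limma called 0 proximal regions and 0 proximal windows in each of 9 alternatives, with 16 to 34 regions and 1 to 3 windows at an unadjusted p under 0.05. All 479 windows had a mean of at least 10 peaks, so that filter changed nothing. With the replicate number as a block limma called 0 proximal regions and 0 proximal windows. At an unadjusted p under 0.05 limma then gave 16 proximal regions (8.12%, against 8.62% of all) and 2 proximal windows (10.5%, against 8.98% of all). Proximal peaks differed by 74.7 (exact sign-flip p = 0.25, the smallest possible with 3 pairs). Deviations of same-numbered libraries correlated at -0.110 to 0.0433, so no pairing by number was detected.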

Other observations

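Chromosome X, which entered none of these comparisons, held 60.0 ± 6.0 peaks (SD, n = 3) below 8 Mb in the WT lists. The Cgas_KO lists held 48.7 ± 6.11 there (two-sided exact permutation p = 0.2). They merged into 188 regions, of which 3 were called in all 6 lists.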
